A study of Mus musculus with 6 samples.

Results

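DNA polymerase alpha-primase is an enzyme of 4 subunits, and its genes in the mouse are Prim1, Prim2, Pola1 and Pola2. Their mRNA levels were read here in lymph node T cells with and without the histone methyltransferase Ezh2. The 4 genes hold 10 of the 45101 probe sets in the deposited table, namely 2 for Prim1, 3 for Prim2, 2 for Pola1 and 3 for Pola2, taken wherever the platform annotation gave one of the 4 as the sole gene symbol. The set was chosen from its Ezh2 deficient against Ezh2 fl/fl values, since a large difference at 1 Prim2 probe set was already known, so all differences of these 4 genes are descriptions and carry no test.

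The study hybridised total RNA of mouse lymph node T cells to 6 single-colour Affymetrix arrays, 3 labelled Ezh2 fl/fl and 3 labelled Ezh2 deficient. In the usual notation fl/fl cells carry loxP sites at both Ezh2 alleles and still express the gene. The labels give no strain, age, sex or batch, do not name the Cre or promoter used to delete Ezh2, and do not say whether the arrays of a group came from separate animals. P-values therefore measure only the spread between these arrays, which may be partly technical. Replicates are numbered within each group in deposit order, and a number pairs no arrays.

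The enzyme starts every new DNA strand. Prim1 is the catalytic primase subunit, which joins ribonucleotides into a short RNA primer, and Prim2 is the large regulatory primase subunit, which binds an iron-sulphur cluster and helps to begin and to count the primer. Pola1 is the catalytic subunit of polymerase alpha, which extends that primer with DNA, and Pola2 is the accessory subunit that ties the enzyme to the replication fork. Naive T cells of a lymph node are mostly resting, and genes of this machinery are known targets of E2F transcription factors that rise when T cells enter the cell cycle.

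The 4 genes did not share a direction. The brightest probe set of each gene stood at a log2 difference (Ezh2 deficient minus Ezh2 fl/fl) of -0.02 for Prim1, -0.03 for Prim2, 0.22 for Pola1 and -0.24 for Pola2, and the values of the 2 groups overlapped at each of them. A single probe set, the dimmest of Prim2 in the controls, stood far apart at 1.55, while the other Prim2 probe sets stood at -0.03 and 0.18. Of the 8 member probe sets bright enough to enter the fit, 4 were above 0 and 4 below, which became 6 and 2 when arrays were centred on their medians. Among the 4 above 0, this dim Prim2 probe set and the second Pola2 probe set entered only through their deficient values.

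The promoters are shown because they are a feature the subunit genes could share that was not used to choose them. RefSeq windows of the GRCm38.p6 assembly, from 250 bases before to 50 bases after a gene's listed start, matched 3 of the 4 genes by symbol. Capitals mark the letters TTGGCG on either strand, the core of a common E2F recognition sequence, which appears as CGCCAA where it lies on the other strand.
Prim1, chr10:128014965-128015264, plus strand: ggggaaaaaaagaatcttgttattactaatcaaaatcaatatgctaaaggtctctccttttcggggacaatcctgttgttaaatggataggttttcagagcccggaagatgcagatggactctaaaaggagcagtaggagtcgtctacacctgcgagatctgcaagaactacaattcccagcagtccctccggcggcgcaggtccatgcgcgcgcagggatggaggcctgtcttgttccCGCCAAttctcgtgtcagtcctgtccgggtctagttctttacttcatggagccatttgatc
Pola1, chrX:93632106-93632405, minus strand: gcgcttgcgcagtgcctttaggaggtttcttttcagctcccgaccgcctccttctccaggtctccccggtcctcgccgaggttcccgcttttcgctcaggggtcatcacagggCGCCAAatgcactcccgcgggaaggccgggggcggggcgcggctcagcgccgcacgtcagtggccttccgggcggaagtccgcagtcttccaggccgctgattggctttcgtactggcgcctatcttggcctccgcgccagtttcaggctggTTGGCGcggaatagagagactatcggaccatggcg
Pola2, chr19:5964157-5964456, minus strand: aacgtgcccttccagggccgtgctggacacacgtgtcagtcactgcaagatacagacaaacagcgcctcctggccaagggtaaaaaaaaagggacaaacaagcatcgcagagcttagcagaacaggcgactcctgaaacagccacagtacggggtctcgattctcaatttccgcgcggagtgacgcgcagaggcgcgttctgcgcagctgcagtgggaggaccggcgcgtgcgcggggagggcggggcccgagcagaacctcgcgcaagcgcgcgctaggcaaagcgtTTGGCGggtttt

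The E2F core TTGGCG was present in all 3 windows, and 7.26% of 32851 promoter windows of that length hold it. These letters were chosen with the 3 sequences in view, so the match is a description. In Prim1 the core lay 11 to 6 bases before the start, on the minus strand of the window, and overlapped a CCAAT box. Pola1 held it at 137 to 132 bases before the start and again 16 to 21 bases into the transcript, and Pola2 at 39 to 44 bases into the transcript. The longer E2F forms TTTGGCGC, TTTCGCGC, TTTGCCGC and TTTCCCGC on either strand were found in 2.26% of all windows and in 1 of these 3, Pola1. CCAAT was found in Prim1 and Pola1 and in 37.4% of all windows, and the GC box GGGCGG in Pola1 and Pola2 and in 35.7%. The 3 windows had a GC content of 49.0% for Prim1, 65.7% for Pola1 and 61.3% for Pola2, beside a median of 52.7%. No binding was measured in this study, and at the brightest probe sets of these 3 genes the groups overlapped.

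All intensities below are quantile normalised values. Differences are on the scale log2(intensity + 43.3), where 43.3 keeps dim probe sets from giving large ratios by noise and makes their fold changes smaller than those of the plain intensities. Levels are compared between arrays at the same probe set only, because 2 probe sets bind with different strength.

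Prim1, the catalytic primase subunit, had overlapping groups at both probe sets. Its brighter probe set read 867, 965 and 1052 in controls and 916, 942 and 982 in deficient arrays, in replicate order here and throughout. The deficient arrays all lay inside the span of the controls, with means of 961 ± 92.4 and 947 ± 33.0 (SD, n = 3 each). The second Prim1 probe set read 563, 776 and 727 in controls and 619, 642 and 683 in deficient arrays, again inside the control span. Its log2 difference was -0.07 (SE 0.13), against -0.02 (SE 0.10) at the brighter one. These 2 probe sets differed from each other by 0.05 in their log2 difference, where the median gap over 3041 genes with 2 tested probe sets was 0.13. Both Prim1 differences lay within 1 SE of 0, and the sign at the brighter one turned to 0.06 when arrays were centred on their medians. Without control replicate 1, which stands apart from the other arrays, the second Prim1 probe set was at -0.20 (SE 0.10) and the brighter one at -0.09 (SE 0.09).

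Prim2, the regulatory primase subunit, gave 2 different pictures depending on the probe set. The brightest, 1418035_a_at, read 586, 633 and 512 in controls and 513, 632 and 543 in deficient arrays. Its group means were 577 ± 61.2 and 563 ± 61.7, a log2 difference of -0.03 (SE 0.12). The next, 1418036_at, read 277, 256 and 301 in controls and 282, 335 and 348 in deficient arrays. Here deficient replicates 2 and 3 lay above every control, deficient replicate 1 lay among them, and the log2 difference was 0.18 (SE 0.13). The third, 1445474_at, read 60.4, 45.6 and 45.9 in controls and 203, 216 and 278 in deficient arrays. Every deficient array stood far above every control at this probe set, and the spread inside each group was small beside the gap.

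At this dim Prim2 probe set the means were 50.7 ± 8.44 and 232 ± 39.8 (SD, n = 3 each), which is a log2 difference of 1.55 (SE 0.19) or 2.92-fold on this scale. Among all probe sets on an array it ranked between the 20.7th and the 25.1st percentile in controls and between the 54.6th and the 62.0th in deficient arrays. It ranked 7 of 27022 tested probe sets by the size of the difference toward the deficient side. Its mean log2 value over the controls alone, 6.55, lay under the filter of 7.29, so it entered the fit only through its high deficient values. The control readings are close to the added 43.3, and the difference was 1.98 with that constant divided by 4 and 0.85 with it multiplied by 4. With any 1 array left out it ran from 1.44 to 1.62. The platform annotation ties the other Prim2 probe sets to a RefSeq mRNA record and this one to a GenBank record outside RefSeq. The part of the gene or the transcript form that it reads is not given in the sources used here.

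**Figure D1:**
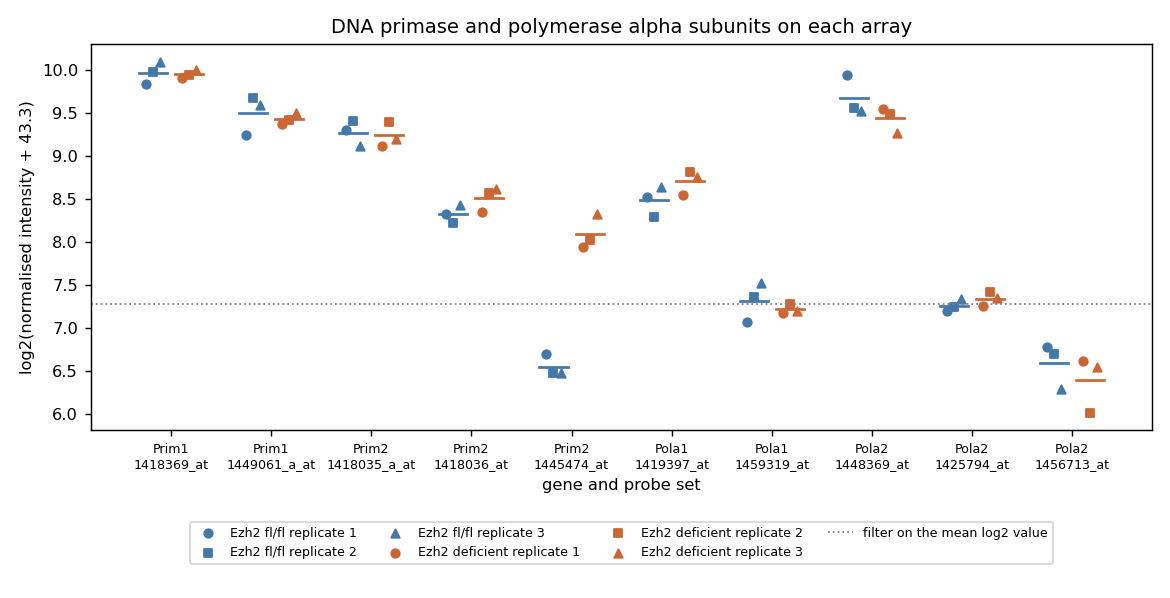
Each point is 1 array at 1 probe set, on a vertical axis of log2(normalised intensity + 43.3), with blue for Ezh2 fl/fl, orange for Ezh2 deficient, bars for group means and a dotted line for the filter at 7.29. The groups separate at Prim2 1445474_at, from a mean of 6.55 to one of 8.10, and overlap at the other 9 probe sets.

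The spread among the Prim2 probe sets was wide for this array. The log2 differences of its 3 tested probe sets covered a range of 1.58. Over the 1430 genes with 3 tested probe sets the median range was 0.21, and Prim2 had the widest. This range contains the value that chose the gene, so its place in the ranking is a description and no evidence on Prim2.

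**Figure D2:**
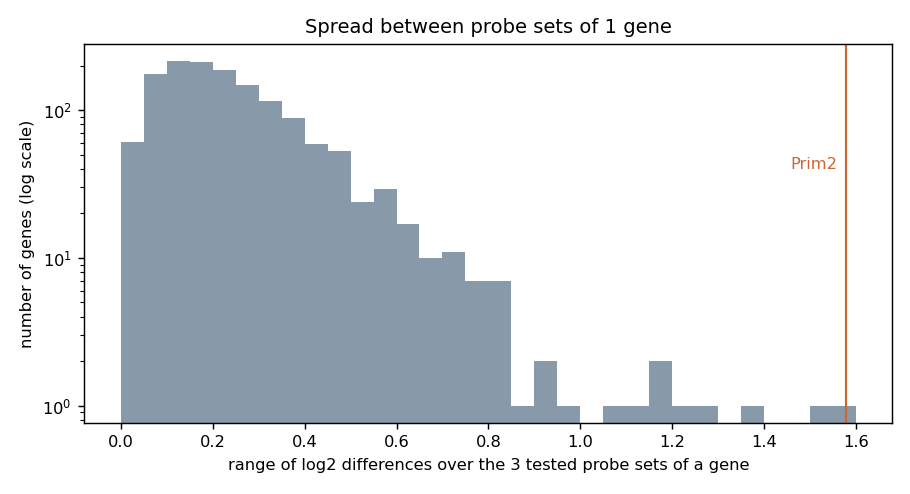
The histogram counts the 1430 genes with 3 tested probe sets (log-scaled vertical axis) by the range of log2 differences among those probe sets. The vertical line marks Prim2 at 1.58, to the right of all other genes, whose bulk sits near the median of 0.21.

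Pola1, the catalytic polymerase subunit, read higher than all controls in 2 of 3 deficient arrays. Its brighter probe set read 326, 270 and 357 in controls and 332, 407 and 389 in deficient arrays. Deficient replicates 2 and 3 were those arrays, and deficient replicate 1 lay below control replicate 3. Group means were 318 ± 43.8 and 376 ± 39.5, a log2 difference of 0.22 (SE 0.14), which ran from 0.12 to 0.30 when single arrays were left out. The dimmer Pola1 probe set read 91.6, 121 and 141 in controls and 102, 112 and 104 in deficient arrays. It lay just under the filter and was not tested, and its log2 difference was -0.10.

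Pola2, the accessory polymerase subunit, had a lower mean in the deficient arrays at its brightest probe set, and that difference depended on 1 control array. This probe set read 942, 709 and 692 in controls and 705, 675 and 575 in deficient arrays. The reading of control replicate 1 stood well above the other 5 arrays, and deficient replicate 1 lay between the remaining controls. Group means were 781 ± 140 and 652 ± 68.2, a log2 difference of -0.24 (SE 0.14), which became -0.10 without control replicate 1. The second Pola2 probe set read 103, 109 and 118 in controls and 110, 128 and 119 in deficient arrays, a log2 difference of 0.08 (SE 0.17) with overlapping groups. The third, between 21.5 and 66.7 on all arrays, lay under the filter and was not tested.

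Counted together, 1 of the 8 tested member probe sets had groups that did not overlap with the deficient arrays higher, where 6.55% of all tested probe sets did. In the other direction, 0 of the 8 had non-overlapping groups, where 6.54% of all tested probe sets did. Over the whole table, limma with Benjamini-Hochberg adjustment called 1 of 27022 probe sets (0.0037%), which belongs to none of the 4 genes. Because this contrast chose the genes, nothing is read from these counts.

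A check of the labels came out as follows. The Ezh2 probe set read 579, 684 and 801 in the Ezh2 fl/fl arrays and 282, 289 and 276 in deficient arrays. All deficient arrays were lower, and 41.0% of the control mean was left. On the log2 scale they stood at -1.16 (SE 0.13). Taken as a single pre-named probe set, Ezh2 had p = 7.83e-06 by limma beside an exact two-sided permutation p of 0.10, the smallest that 3 arrays against 3 allow. The limma adjusted p over all probe sets was 0.0705. Whether this probe set lies in the deleted part of Ezh2 is not given in the sources used here.

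T cell markers were bright on all arrays, with Cd3e, a chain of the T cell receptor complex, at 6764 ± 111 in controls and 6633 ± 989 in deficient arrays. The 10 tested T cell markers summed to 88372 to 90796 in controls and 86999.7 to 88079 in deficient arrays, with 3 of 10 above 0 and 7 below, so each control sum was the higher. Cd4 and Cd8a, the coreceptors of the main T cell classes, stood at -0.04 (SE 0.13) and -0.06 (SE 0.06). The other Cd4 probe set stood at -0.07, and the other Cd8a probe sets at -0.13, -0.11, -0.08 and -0.23. At the Cd8a probe set with -0.13 the groups did not overlap, with the deficient arrays lower. The 6 tested B cell markers summed to 1338 to 1560 in controls and 1383 to 1420 in deficient arrays. In the same order, the 5 tested myeloid and dendritic markers summed to 849 to 1235 and 827 to 933. The 4 tested erythroid and stromal markers summed to 1441 to 1834 and 1425 to 1497. Most of that last sum was Pecam1, which averaged 1114 in controls and 960 in deficient arrays. The markers Cd79a, Cd14 and Cd209a were too dim to be tested. Of the 25 tested markers of the 4 lists, 2 had non-overlapping groups with the deficient arrays higher and 4 with them lower, beside 6.55% and 6.54% of all tested probe sets. The higher ones were the B cell factor Pax5 at 0.33 and the collagen gene Col1a1 at 0.29, and the lower ones were Cd8b1 at -0.17, the macrophage receptor gene Csf1r at -0.42, the haemoglobin gene Hba-a1 at -0.38 and the endothelial gene Pecam1 at -0.20. None of these passed by limma over all probe sets, and those outside the genes marked for naming were picked after their values were seen. Pax5 had a mean log2 value of 7.22 in controls, under the filter of 7.29, and entered the fit only through its deficient values. Csf1r stood at 0.12 and 0.29 on its other probe sets. In the same list the macrophage gene Adgre1 stood at 0.23, Itgax at 0.02, Lyz2 at -0.14 and Siglech at -0.30. By their brightest probe sets, 2 of the 5 tested genes of this list were above 0 and 3 below. Control replicate 1 had a first principal component score of -41.5, where the remaining 5 scored 1.48 to 15.1, and the Prim1 and Pola2 values are given with and without it above. In bulk RNA, fewer cells of a type and less RNA per cell cannot be told apart, and the part that cell make-up plays in the subunit values was not tested.

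The rest of the replication machinery puts the 4 subunits in context. Across 9 lists of replication and proliferation genes, 75 of 83 genes were tested, each by its brightest probe set. Of these, 47 were above 0 and 28 below, with a median log2 difference of 0.03, beside 5757 of 12275 tested genes above 0 and a median of -0.01. By limma 0 of the 75 were called in either direction at an adjusted p under 0.05, as were 0 of all 12275 genes on that basis (0%). At an unadjusted p under 0.05 there were 2 higher and 2 lower, where 3.92% of all genes were higher and 4.29% lower. The surplus above 0 depended on single arrays. Without Ezh2 deficient replicate 2, 34 of 73 genes were above 0 and the median was -0.01, and without Ezh2 fl/fl replicate 1, 40 of 76 were above 0 with a median of 0.02. With arrays centred on their medians, 59 of 75 genes were above 0, and 7877 of all 12273 genes were too.

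Among genes that work directly with polymerase alpha-primase, Wdhd1, the fork protein that holds it to the helicase, stood at -0.06 (SE 0.13). Ctc1 and Stn1, subunits of the CST complex that directs the enzyme to telomere ends, stood at 0.16 (SE 0.12) and 0.05 (SE 0.13). Primpol, which encodes a separate primase that restarts stalled forks, read 415, 367 and 400 in controls and 439, 467 and 461 in deficient arrays. Its groups did not overlap, with a log2 difference of 0.19 (SE 0.11, limma adjusted p = 0.722). In this list of 4 genes, 3 were above 0.

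In the helicase list 8 of 16 genes were above 0 and 8 below. The helicase subunit Mcm5 stood at 0.01 (SE 0.08) and the helicase activator Cdc45 at 0.07 (SE 0.18). A dimmer Cdc45 probe set stood at 0.54 (SE 0.21), with overlapping groups. Mcm2, another helicase subunit, read 3544, 3245 and 3060 in controls and 3268, 1703 and 1228 in deficient arrays at its brightest probe set, a log2 difference of -0.77 (SE 0.28, limma adjusted p = 0.636). Deficient replicates 2 and 3 were low there, and deficient replicate 1 lay among the controls. The difference was -1.15 without deficient replicate 1 and -0.46 without deficient replicate 3. The second Mcm2 probe set stood at 0.05 (SE 0.11). So Mcm2, like Prim2, read differently from 1 probe set to another. Gins1, a helicase cofactor gene picked after its value was seen, stood at 0.64 (SE 0.24, limma adjusted p = 0.636), dim in both groups at 99.8 ± 33.5 and 179 ± 43.9. Its mean log2 value over the controls, 7.13, lay under the filter of 7.29, so Gins1 entered the fit only through its deficient values.

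The genes that license origins before replication included 7 of 11 above 0, with Orc1 at 0.18 (SE 0.13), Cdc6 at -0.10 (SE 0.28) and Cdt1 at 0.02 (SE 0.07). A dimmer Orc1 probe set stood at 0.50 (SE 0.21), and its groups did not overlap. Its mean log2 value over the controls, 7.08, lay under the filter of 7.29, so it entered the fit only through its deficient values. The polymerases that take over from polymerase alpha, delta and epsilon, had 3 of 7 tested genes above 0, with the delta catalytic subunit Pold1 at -0.11 (SE 0.12). The epsilon catalytic subunit Pole lay under the filter and was not tested. It read 8.63, 69.8 and 11.02 in controls and 83.72, 101.6 and 153.66 in deficient arrays. Its groups did not overlap, with the deficient arrays higher and a log2 difference of 1.17. Its mean log2 values were 6.09 in controls and 7.26 in deficient arrays, and control replicates 1 and 3 read below the added 43.3. In the clamp, clamp loader and single-strand binding list 7 of 9 were above 0. The sliding clamp Pcna stood at 0.09 (SE 0.06), and Rpa1 and Rpa2, which coat single-stranded DNA, at -0.02 (SE 0.06) and 0.05 (SE 0.11). Of 6 genes that remove primers and join fragments, 4 were above 0, with the flap nuclease Fen1 at 0.10 (SE 0.11) and the ligase Lig1 at 0.10 (SE 0.10). The primer-removing Rnaseh2c, picked after its value was seen, stood at -0.23 (SE 0.07, limma adjusted p = 0.619).

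Markers of cycling cells were highest in 1 deficient array. The 9 tested markers summed to 2652, 3427 and 3111 in controls and 3017, 4161 and 3059 in deficient arrays, so that deficient replicate 2 was the highest and the other 5 arrays overlapped. Mki67, the classical proliferation antigen, read 426, 413 and 315 in controls and 373, 697 and 336 in deficient arrays. Top2a, which untangles replicated DNA, stood at 0.08 (SE 0.15) and the mitotic kinase Cdk1 at -0.21 (SE 0.15). All 3 tested genes of nucleotide supply were above 0, with the ribonucleotide reductase subunit Rrm2 at 0.22 (SE 0.21), and Tyms was too dim to test. Of 10 tested E2F and pocket protein genes, 5 were above 0. E2f1, the activator of replication genes, stood at 0.04 (SE 0.18) and the pocket protein Rb1 at 0.05 (SE 0.21). The related Rbl1, picked after its value was seen, stood at 0.20 (SE 0.07, limma adjusted p = 0.642) at its brightest probe set. Its other tested probe sets stood at 0.37 (SE 0.17), 0.12 (SE 0.19) and -0.14 (SE 0.23).

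**Figure D3:**
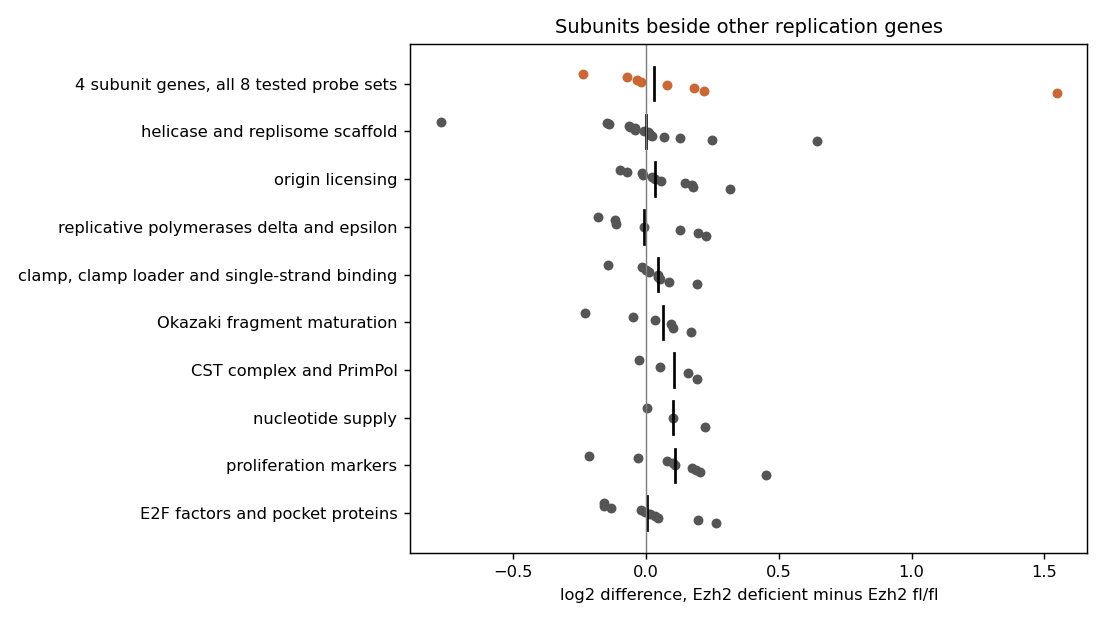
Each point is the log2 difference (Ezh2 deficient minus Ezh2 fl/fl) of 1 gene at its brightest tested probe set, by list, and of each of the 8 tested probe sets of the 4 subunit genes in the top row. Black bars are medians. The Prim2 point at 1.55 lies beyond all other genes shown, which run from -0.77 to 0.64. That point is the dimmest Prim2 probe set and the value that chose the set, so its place is a description. By its brightest probe set Prim2 stood at -0.03. Genes under the filter are not shown, among them Pole at 1.17. The Prim2 point at 1.55, the second Pola2 probe set and Gins1 at 0.64 passed the filter only through their deficient values.

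The genes whose log2 values ran most alike across the 6 arrays were taken by Pearson correlation. For the dim Prim2 probe set they were Cog1 (r = 0.998), Nsun2 (r = 0.992) and Maco1 (r = 0.990). Cog1, a Golgi tethering gene, averaged 124 in controls and 241 in deficient arrays. Nsun2, an RNA methyltransferase gene, went from 2354 to 2525 and Maco1 from 941 to 1030. For the brightest Prim2 probe set the nearest were Rsrc1 (r = 0.992), Fech (r = 0.990) and Utp6 (r = 0.987). The nearest to Prim1 were Ngdn (r = 0.987), Rnf220 (r = 0.985) and Vps4a (r = 0.984). Pola1 had Nprl3 (r = 0.994), Fam168b (r = 0.983) and Arhgap31 (r = 0.981), and Pola2 had Ptbp1 (r = 0.999), Bicral (r = 0.998) and Wdr31 (r = 0.994). With 6 arrays and 27022 probe sets to search, a value of 0.981 or more was found for every probe set tried, so these are descriptions of array patterns.

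Neighbouring genes were looked up by their order on the chromosome in RefSeq. Of the 8 protein-coding genes that flank the 4, 3 were tested. Rab23, a small GTPase gene next to Prim2, averaged 403 in controls and 499 in deficient arrays, a log2 difference of 0.30 (SE 0.15). Naca and Hsd17b6, on either side of Prim1, stood at 0.01 (SE 0.05) and -0.06 (SE 0.21).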

How the data were processed

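The deposited table holds the intensities of 45101 probe sets on 6 arrays. The authors' deposited intensities are linear, and on all arrays their 2% trimmed mean equalled 500.002, which fits a common scaling target. The software is not given in the sources used here. Array medians differed by 15.2%, so intensities were quantile normalised and turned into log2(intensity + 43.3), the 20th percentile of positive values. The 64 control probe sets and those with a mean log2 value under the 40th percentile were left out, leaving 27022.

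Groups were compared with limma 3.58.1 in R 4.3.3 (lmFit, eBayes with intensity trend, 4 residual degrees of freedom), two-sided, with Benjamini-Hochberg adjustment over all 27022 and a threshold of 0.05. SEs come from this fit. Gene names came from the platform annotation, with 34945 probe sets of 1 symbol, 932 of several and 9160 of none. The number of arrays limits the precision.

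Members and gene lists were chosen with earlier results of these data known. Genes named from lists were marked in the lists before fitting, with Ezh2, all member probe sets and the 3 genes most like each of 5 member probe sets (the brightest of each gene and any with non-overlapping groups). Exceptions are stated. Alternatives were the deposited scaling, median centring, other pseudocounts and filters, eBayes without trend, robust eBayes, array weights, and leaving out each array.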

Additional observations from a re-analysis of the deposited data

How the results depend on the processing

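The number of called probe sets, 1, became 3 under the deposited scaling, 2 with median centring, 3 with robust eBayes and 3 with array weights, and ran from 1 to 6 over the runs that dropped 1 array, with 3 when control replicate 1 was dropped and 6 when deficient replicate 2 was dropped. The Prim2 probe set 1445474_at was at 1.98 with the pseudocount divided by 4 and 0.85 with it multiplied by 4. The other 9 member probe sets moved by less than 1 SD between replicates under each alternative run on them. The median of the replication genes was 0.11 with median centring, where all genes had 0.06, and ran from -0.01 to 0.05 with single arrays left out. The count of called replication genes was 0 under each of these alternatives for which it was computed. The Ezh2 difference ran from -1.28 to -0.91, and its unadjusted limma p as a single probe set was under 0.05 in each of these runs, though its adjusted p over all probe sets was 0.0705. No detection calls were used, so how far the dimmest readings stand above background was not measured. No paired analysis was possible because the labels number the arrays in 1 run across both groups and no number is shared.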
